A study of Mus musculus with 2 samples.

Results

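Ribosome biogenesis factors are the nucleolar proteins that transcribe, modify, cut and fold ribosomal RNA and assemble it with ribosomal proteins. A list of 36 of their genes was read here in 2 single-cell RNA libraries of mouse bone marrow. A member was the row of the deposited gene table whose symbol equalled a listed name, and all 36 were found among the 31053 genes. The list holds 3 genes of RNA polymerase I and its cofactor, 3 nucleolar phosphoproteins, 4 genes of the box C/D and 4 of the box H/ACA ribonucleoproteins, 9 small subunit assembly factors and 13 large subunit assembly factors. The genes lie on 17 chromosomes.

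The irradiated library came from C57BL/6J mice taken on day 15 after total body irradiation with 5.0 Gy. The control library came from C57BL/6J mice that were not irradiated. Mice of both groups were 6 to 8 weeks old. The cells were LSK cells, the marrow fraction that lacks lineage markers and carries Sca1 and Kit, and that holds blood stem cells and multipotent progenitors. How many mice were pooled per library is not given in the sources used here. With 1 library per group there is no replicate error and no test, so every value describes these libraries, and each interval is an exact 95% interval that covers counting error only.

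Ribosome production starts in the nucleolus, where RNA polymerase I makes a long precursor RNA. Guide ribonucleoproteins of the box C/D type methylate this RNA, and those of the box H/ACA type turn uridine into pseudouridine. Large assemblies then cut the precursor and fold the small and the large subunit, which leave for the cytoplasm. Blood stem cells at rest are known for low protein synthesis, and Myc is a known activator of ribosome biogenesis genes in growing cells.

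The filters on UMIs, genes and mitochondrial share, and the removal of cells marked as doublets, left 5112 irradiated cells with 162741683 unique molecular identifiers (UMIs). They left 7189 control cells with 138113621 UMIs. The median cell had 29615 UMIs if irradiated and 16084 if from the control library. The sort genes were present: Kit was at 73.5 UMIs per 1000000 UMIs (CPM) in the irradiated library and 132 CPM in the control library, and Ly6a, which encodes Sca1, at 218 and 156 CPM. Cd3e, a gene of mature T cells, was low, at 0.0553 CPM in irradiated and 0.0579 CPM in control cells. A G2/M phase was called for 44.9% of irradiated and 22.4% of control cells. There were 16 barcode sequences that occur in both libraries, 11 of them among the kept cells.

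Over all kept cells every one of the 36 members had a higher level in the irradiated library than in the control library. The members summed to 8716 CPM in the irradiated library (interval 8701 to 8730) and to 6771 CPM in the control library (6758 to 6785), which is 0.872% and 0.677% of all UMIs. The log2 ratio of these sums, irradiated over control, was 0.36. A gene was called higher where its irradiated CPM exceeded its control CPM by 25% or more, and lower where the control CPM exceeded the irradiated by 25% or more. By this rule 20 of the 36 members were higher and 0 lower. Over the whole table, 9032 genes averaged 5 CPM or more, and 17.2% of these were called higher and 28.3% lower. The median log2 ratio was 0.36 over the members and -0.063 over those genes. Npm1 and Ncl hold most of the members' UMIs, and without them the other 34 members summed to 4198 CPM in irradiated and 3295 CPM in control cells, a log2 ratio of 0.35.

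Ribosomal proteins, which the factors assemble with ribosomal RNA, were close to equal between the libraries. Of 85 cytosolic ribosomal protein genes at the same minimum level, 7 were called higher and 1 lower, with a median log2 ratio of -0.035. They summed to 359031 CPM in the irradiated library and 372119 CPM in the control library. When library totals were taken without ribosomal protein and mitochondrial genes, 13.3% of genes were called higher and 34.7% lower, and 17 members were still called higher and 0 lower.

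A sum over all cells cannot tell apart a different mix of cells from a different level within each cell, and the mix differed. Markers of neutrophil-primed progenitors summed to 6741 CPM in irradiated and 1662 CPM in control cells, with 9 of 10 higher, 0 lower and none at 0 in either library. Markers of stem cells summed to 140.1 CPM in irradiated and 394 CPM in control cells, with 1 of 10 higher, 9 lower and none at 0. When the 18 clusters of cells were given the shares they have in the control library, 3 members were called higher and 0 lower, against 5.82% of genes higher, and the summed log2 ratio was 0.15. Those members were Bysl at a log2 ratio of 0.39, Rrp1b at 0.37 and Wdr75 at 0.35. When only the phases G1, S and G2/M were given their control shares, 15 members were called higher, against 12.6% of genes, and the summed log2 ratio was 0.26. Both weightings were chosen after the data were seen. Among cells of 15000 to 30000 UMIs, 1902 irradiated and 3004 control cells, only Bysl was called higher, at 0.38, against 8.72% of genes, and the members' median was 0.043.

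**Figure D1:**
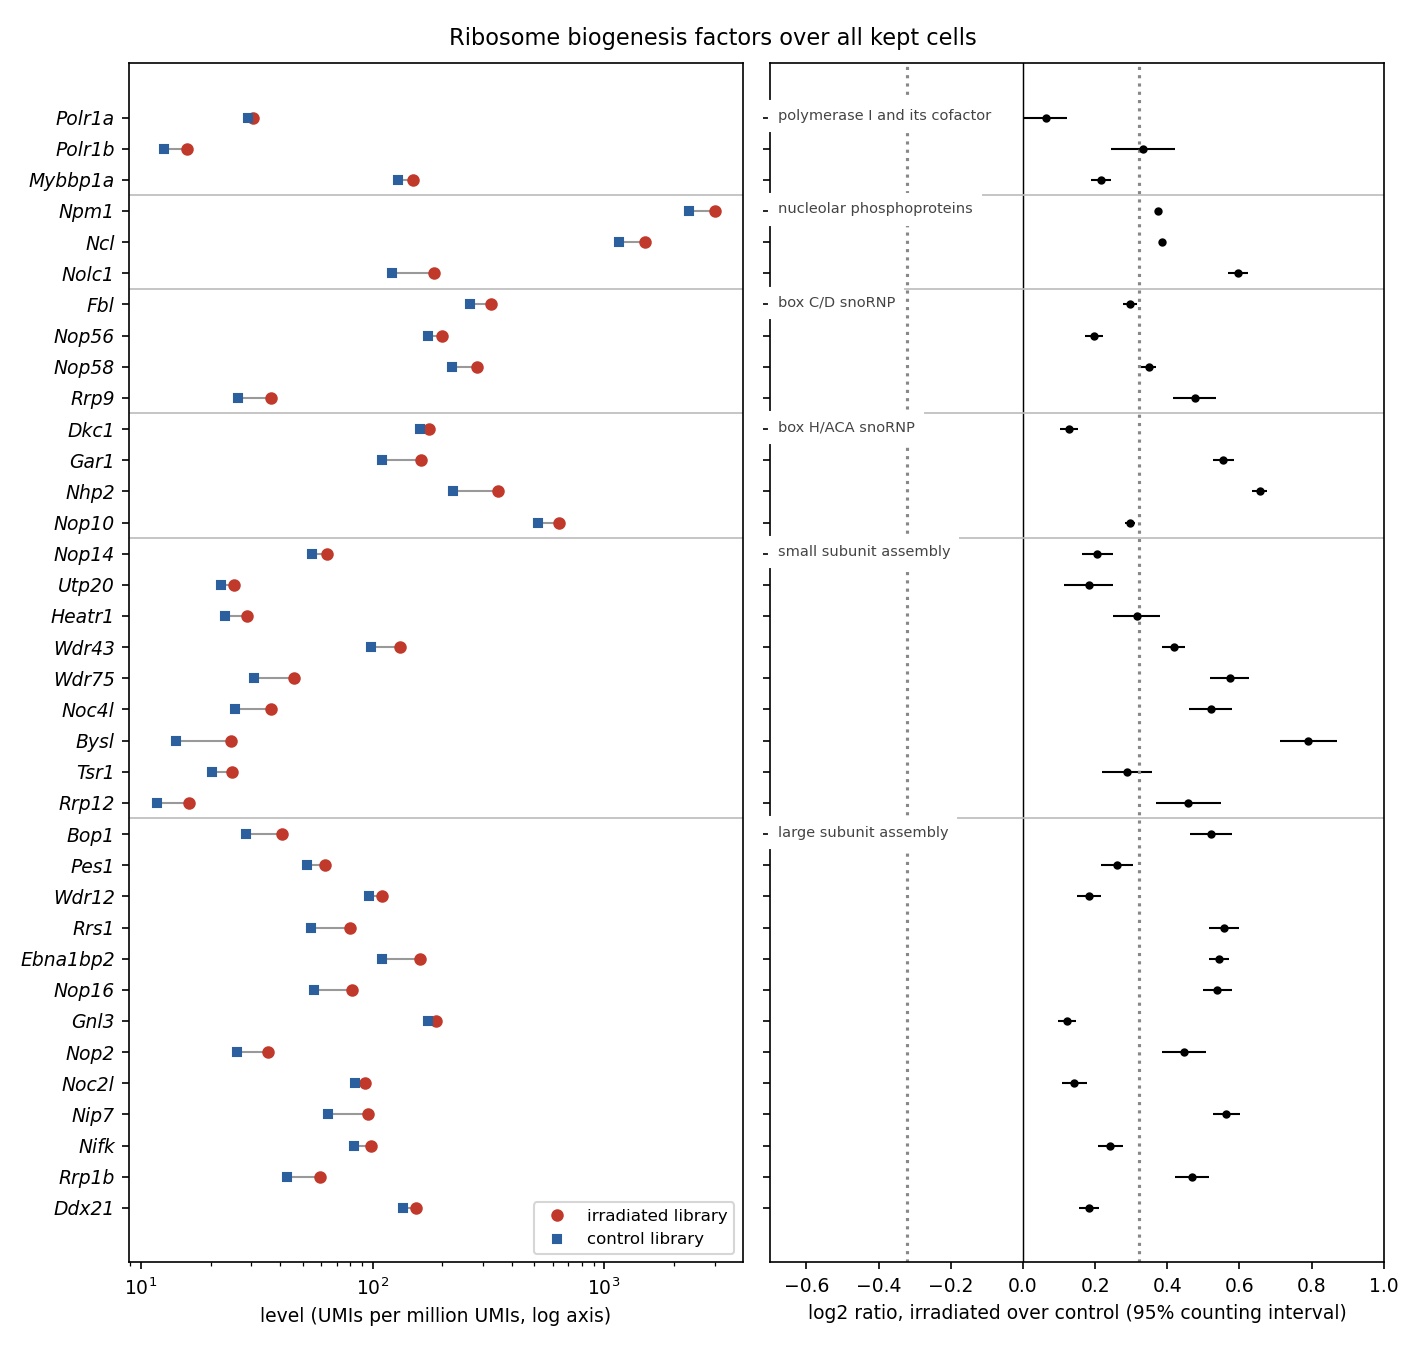
Level of each member over all kept cells (left, UMIs per 1000000 UMIs on a log axis; circles irradiated, squares control) and its log2 ratio, irradiated over control, with the exact 95% counting interval (right; dotted lines mark a 25% difference). All 36 points lie to the right of 0, between 0.063 for Polr1a and 0.79 for Bysl, and 20 lie past the right dotted line.

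Because the members stood higher together, their promoter sequences are shown for some of them, with the E-box CACGTG, the sequence that Myc and Max bind as a pair, printed in capitals. RefSeq windows on GRCm38.p6, 250 bases before to 50 bases after the start site, were found for 31 of the 36 members, all but Rrs1, Npm1, Fbl, Bop1 and Rrp12. The motif reads the same on both strands. It occurred in 6 of the 31 windows (19.4%, Clopper-Pearson interval 7.45% to 37.5%), those of Mybbp1a, Nop2, Pes1, Tsr1, Utp20 and Wdr43. It occurred in 20.8% of 96 windows of other ribosome biogenesis genes, in 7.24% of the windows of all 27025 genes, and in 11.1% of the 7931 windows with at least 60% G or C. The first 3 sequences are members with the motif, and the last 2 are the members with the highest all-cell ratios, which have none in their windows. Each runs 5′ to 3′ from 100 bases before the start site to 50 bases after it.
Nop2, chr6:125131783-125131932, plus strand: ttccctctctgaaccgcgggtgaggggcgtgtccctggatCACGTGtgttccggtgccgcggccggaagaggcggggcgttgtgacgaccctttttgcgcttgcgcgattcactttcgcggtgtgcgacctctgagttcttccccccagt
Wdr43, chr17:71616115-71616264, plus strand: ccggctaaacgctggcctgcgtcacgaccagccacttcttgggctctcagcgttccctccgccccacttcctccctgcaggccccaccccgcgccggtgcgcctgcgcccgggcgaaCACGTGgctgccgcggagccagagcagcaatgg
Pes1, chr11:3963875-3964024, plus strand: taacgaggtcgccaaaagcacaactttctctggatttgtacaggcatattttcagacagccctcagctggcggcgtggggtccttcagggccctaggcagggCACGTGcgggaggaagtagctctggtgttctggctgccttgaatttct
Bysl, chr17:47611443-47611592, minus strand: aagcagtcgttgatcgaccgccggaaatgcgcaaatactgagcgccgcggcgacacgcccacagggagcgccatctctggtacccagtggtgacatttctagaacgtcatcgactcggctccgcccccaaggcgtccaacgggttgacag
Nhp2, chr11:51619673-51619822, plus strand: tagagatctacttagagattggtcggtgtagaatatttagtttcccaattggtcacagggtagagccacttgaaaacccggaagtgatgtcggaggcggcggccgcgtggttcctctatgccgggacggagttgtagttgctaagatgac

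The motif starts at position -60 in Nop2, 18 in Wdr43 and 3 in Pes1, counted with the first transcribed base as 1. A match is a run of letters and no sign of binding. Of the 6 members with the motif, 2 were called higher over all cells, with a median log2 ratio of 0.27. Of the 25 members whose window lacked it, 14 were called higher, with a median of 0.35. The highest ratio of a member with the motif was 0.45, that of Nop2.

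The genes of RNA polymerase I and its cofactor had the lowest ratios of any role, with a median log2 ratio of 0.22 over 3 genes. Polr1a encodes the largest subunit of the enzyme and was at 30.4 CPM in irradiated and 29.1 CPM in control cells (log2 ratio 0.063, interval 0.0023 to 0.12). Polr1b, the second largest subunit, was at 15.8 CPM in irradiated and 12.6 CPM in control cells, and was the only gene of the 3 called higher (0.33). Mybbp1a, a nucleolar protein that binds Myb, was at 149.6 CPM in irradiated and 129 CPM in control cells (0.22).

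All 3 nucleolar phosphoproteins were called higher, and they carry more than any other role of the members' UMIs. Npm1, a histone and ribosome chaperone that is often mutated in human myeloid leukaemia, was at 3009 CPM in irradiated and 2321 CPM in control cells (0.37). Npm1 has processed copies elsewhere in the genome, and how reads shared with them were counted is not given in the sources used here. Ncl, or nucleolin, which binds ribosomal RNA and its genes, was at 1509 CPM in irradiated and 1156 CPM in control cells (0.38). Nolc1, which ferries guide ribonucleoproteins within the nucleolus, was at 184 CPM in irradiated and 122 CPM in control cells (0.60). Its gene, ENSMUSG00000015176, lies at 46075863 to 46085530 on the plus strand of chromosome 19 (GRCm38).

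Among the box C/D proteins, 2 of 4 were called higher. Fbl, or fibrillarin, the methyltransferase of the complex, was at 323 CPM in irradiated and 263 CPM in control cells (0.30). The scaffold proteins Nop56 and Nop58 differed from each other: Nop56 was at 199 CPM in irradiated and 173 CPM in control cells (0.20), and Nop58 at 281 CPM in irradiated and 221 CPM in control cells (0.35). Rrp9, which joins the complex that carries the U3 guide RNA, was at 36.4 CPM in irradiated and 26.2 CPM in control cells (0.48). The intervals of Nop56 (0.17 to 0.22) and Nop58 (0.33 to 0.37) did not overlap.

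The box H/ACA proteins spread more widely, although they form a single complex. Nhp2 had the second highest ratio of all members, at 349 CPM in irradiated and 222 CPM in control cells (0.66, interval 0.64 to 0.68). Gar1 was at 162 CPM in irradiated and 110.2 CPM in control cells (0.56). These core proteins were called higher and the other 2 members of the complex were not. Dkc1, the pseudouridine synthase, which is mutated in human dyskeratosis congenita and also belongs to telomerase, was at 175 CPM in irradiated and 160.5 CPM in control cells (0.13, interval 0.10 to 0.15). Nop10, which binds Dkc1, was at 638 CPM in irradiated and 519.9 CPM in control cells (0.30). Nhp2 (ENSMUSG00000001056) lies on chromosome 11 at 51619735 to 51623714, plus strand, GRCm38.

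Small subunit factors included the member with the highest ratio, and 5 of 9 were called higher. Bysl, or bystin, which acts late in small subunit assembly, was at 24.4 CPM in irradiated and 14.1 CPM in control cells (0.79, interval 0.71 to 0.87). Its gene, ENSMUSG00000023988, lies on chromosome 17 at 47599331 to 47611492 on the minus strand (GRCm38). Among the proteins that join the early precursor with polymerase I transcription, Wdr75 was at 45.9 CPM in irradiated and 30.8 CPM in control cells (0.57). Wdr43 was at 132 CPM in irradiated and 98.5 CPM in control cells (0.42). Heatr1, which belongs with them, was at 28.7 CPM in irradiated and 23.1 CPM in control cells (0.31), just short of the 25% difference. Nop14 and Noc4l, which bind each other in yeast, differed: Nop14 was at 63.4 CPM in irradiated and 55.0 CPM in control cells (0.21), and Noc4l at 36.6 CPM in irradiated and 25.5 CPM in control cells (0.52). Rrp12, an export factor in yeast, was at 16.1 CPM in irradiated and 11.8 CPM in control cells (0.46). The remaining factors, Utp20 and Tsr1, were not called. Utp20, a large scaffold protein of the early small subunit precursor, was at 25.2 CPM in irradiated and 22.2 CPM in control cells (0.18), and Tsr1, a GTPase-like protein of the late small subunit, at 24.6 CPM in irradiated and 20.2 CPM in control cells (0.29).

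Large subunit factors were called higher in 7 of 13 cases. Bop1, Pes1 and Wdr12 form the PeBoW complex, which is needed to cut the spacer before the large subunit RNA. Only Bop1 of the 3 was called: it was at 40.6 CPM in irradiated and 28.3 CPM in control cells (0.52). Pes1 was at 62.3 CPM in irradiated and 52.0 CPM in control cells (0.26), and Wdr12 at 109.9 CPM in irradiated and 96.8 CPM in control cells (0.18). The interval of Bop1 (0.46 to 0.58) lay above those of Pes1 (0.22 to 0.30) and Wdr12 (0.15 to 0.22).

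The other called members of the large subunit group follow. Nip7 was at 95.1 CPM in irradiated and 64.3 CPM in control cells (0.56), and Rrs1, which brings in the small RNA of the large subunit, at 79.6 CPM in irradiated and 54.1 CPM in control cells (0.56). Ebna1bp2, whose yeast relative is needed for the large subunit RNA, was at 161 CPM in irradiated and 110.2 CPM in control cells (0.54), and Nop16 at 81.6 CPM in irradiated and 56.1 CPM in control cells (0.54). Rrp1b was at 59.1 CPM in irradiated and 42.7 CPM in control cells (0.47). Nop2, a methyltransferase of the large subunit RNA, was at 35.3 CPM in irradiated and 25.9 CPM in control cells (0.45).

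The other large subunit members had lower ratios and none was called. Gnl3, or nucleostemin, a GTPase known from stem and cancer cells, was at 189 CPM in irradiated and 173 CPM in control cells (0.12). Noc2l, which also binds histones and blocks their acetylation, was at 92.7 CPM in irradiated and 84.0 CPM in control cells (0.14). Ddx21, an RNA helicase, was at 154 CPM in irradiated and 135 CPM in control cells (0.18). Nifk, which binds the proliferation protein Ki-67, was at 98.2 CPM in irradiated and 83.0 CPM in control cells (0.24). Gnl3 thus stood with Polr1a and Dkc1 among the 3 lowest ratios of the whole list.

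The same levels were read within classes of cells. Clusters were formed without the members, the other listed biogenesis and Myc network genes, and the cytosolic ribosomal protein genes. The genes used to call phases, listed sex-linked genes and genes of the mitochondrial genome were also left out. Other cell cycle genes, such as Aspm, were not left out, and phase shares differed widely between clusters. Clusters were named from marker lists where at least 3 markers stood among their 25 leading genes. Classes with 100 or more cells in both libraries were compared. In the 330 irradiated and 1690 control HSC-like cells, with Hlf and Procr among their leading genes, 0 members were called higher and 2 lower, where 10.0% and 17.3% of 9397 genes were called. The members summed to 5196 CPM (interval 5130 to 5262) in irradiated and 5198 CPM (5167 to 5229) in control HSC-like cells, and their median log2 ratio was -0.060 against -0.027 over all genes. The lower members were Gnl3, at 96.7 CPM in irradiated and 136 CPM in control cells (-0.49, interval -0.64 to -0.35), and Utp20, with 59 UMIs in irradiated and 367 UMIs in control cells (-0.44, -0.86 to -0.041).

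Most members of HSC-like cells had intervals that hold a ratio of 1, 29 of the 36, while 2 lay above it and 5 below. After Gnl3 and Utp20 the lowest ratios were those of Nop56, at 97.4 CPM in irradiated and 118 CPM in control cells (-0.27), and Rrp12 (-0.23, interval -0.81 to 0.32). The highest were Rrp1b, at 37.2 CPM in irradiated and 30.4 CPM in control cells (0.29), Bysl (0.28), Wdr75 (0.20) and Nop14 (0.18). Npm1, with more UMIs behind it, was at 1937 CPM in irradiated and 1759 CPM in control HSC-like cells (0.14, interval 0.11 to 0.17). The counts of called members rested on how the class was drawn. Where each of 226 irradiated and 1068 control cells was named by its own markers, 12 members were called higher and 0 lower, with a median of 0.23, and 16.5% of genes were called higher and 24.7% lower.

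Depth and phase of the HSC-like cells were as follows. Their median cell had 13426.5 UMIs in the irradiated and 11322.5 UMIs in the control library, and 82.0% of irradiated and 84.7% of control cells were called G1. A G2/M call was given to 6.83% of irradiated and 2.99% of control HSC-like cells. Mki67, a gene of dividing cells, was at 22.5 CPM in irradiated and 9.04 CPM in control HSC-like cells (log2 ratio 1.31, interval 0.95 to 1.67). Markers of the stem cell list summed to 756 CPM in irradiated and 1046 CPM in control HSC-like cells, with 2 of 10 higher, 4 lower and none at 0 in either library. Neutrophil-primed markers summed to 1057 CPM in irradiated and 812 CPM in control HSC-like cells, with 6 of 10 higher, 0 lower and Fcnb at 0 in both. Their part in the result was not tested. Cluster 0 held 281 of the 330 irradiated and 1284 of the 1690 control cells of the class, and cluster 9 the rest.

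Lymphoid-primed cells, led by Dntt, Satb1 and Il7r, numbered 278 irradiated and 1001 control cells. The members summed to 7595 CPM in irradiated and 7119 CPM in control cells, and 4 were called higher and 1 lower, where 11.1% and 15.2% of genes were called. The median log2 ratio was 0.11 over the members and -0.0096 over all genes. The median cell had 23200 UMIs in irradiated and 17576 UMIs in control cells of the class, and 14.4% of irradiated and 5.40% of control cells were called G2/M. Among cells of 15000 to 30000 UMIs, 209 irradiated and 683 control cells, the members' median was -0.0042, with 1 member higher and 2 lower, where 10.5% and 16.2% of genes were called. The called genes were Rrs1, at 75.8 CPM in irradiated and 56.2 CPM in control cells (0.43), Rrp1b (0.37), Bysl (0.36) and Wdr75 (0.36) on the higher side. On the lower side was Rrp12, at 9.88 CPM in irradiated and 13.2 CPM in control cells (-0.42, interval -0.83 to -0.015). Gnl3 (-0.11), Dkc1 (-0.093) and Utp20 (-0.071) followed it without being called. Across 15 alternatives the count of higher members ran between 0 and 8, and Rrp12 changed sign under 2 of them. Neutrophil-primed markers summed to 1242 CPM in irradiated and 816 CPM in control lymphoid-primed cells, with 8 of 10 higher, 0 lower and Fcnb at 0 in both. Their part in the result was not tested.

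Megakaryocyte-primed cells, led by Pf4, Itga2b and Gp5, numbered 511 irradiated and 224 control cells. The members summed to 7047 CPM in irradiated and 6672 CPM in control cells, and 2 were called higher and 0 lower, where 8.87% and 20.7% of genes were called. The median log2 ratio was 0.030 over the members and -0.059 over all genes. Bysl was at 20.7 CPM in irradiated and 12.6 CPM in control cells (0.71, interval 0.30 to 1.15), and Noc4l at 33.2 CPM in irradiated and 26.2 CPM in control cells (0.34). The lowest ratios were those of Polr1a, at 26.1 CPM in irradiated and 32.3 CPM in control cells (-0.31), Nop2 (-0.31), Utp20 (-0.30) and Pes1 (-0.15). Cluster 11 of this class also carries mast cell genes. Mast cell and basophil markers summed to 244 CPM in irradiated and 1606 CPM in control cells of the class, with 2 of 8 higher and 5 lower, Tpsb2 at 0 in both libraries and Cma1 at 0 in the control library. Their part in the result was not tested.

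A cluster led by the mitotic genes Nusap1, Cenpf and Aspm was given no cell type name. It held 547 irradiated and 880 control cells, of which 83.3% and 84.3% were called G2/M. All 36 members had a ratio above 1 with an interval above it, and 23 were called higher and 0 lower, where 11.6% and 22.8% of genes were called. The members summed to 8271 CPM in irradiated and 6517 CPM in control cells of the cluster, with a median log2 ratio of 0.39 against -0.066 over all genes. Rrp12 was at 16.9 CPM in irradiated and 10.0 CPM in control cells (0.76), Bysl at 22.0 and 13.6 CPM (0.69), Tsr1 at 23.6 and 14.8 CPM (0.67), and Nop2 at 32.9 and 20.8 CPM (0.66). The lowest ratios were Dkc1 (0.14), Nop56 (0.15), Wdr12 (0.17) and Polr1a (0.19).

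Within this mitotic cluster other values differed between the libraries as well. Neutrophil-primed markers summed to 2528 CPM in irradiated and 1304 CPM in control cells, with 7 of 10 higher, 1 lower and Fcnb at 0 in both libraries. Lymphoid-primed markers summed to 773 CPM in irradiated and 1395 CPM in control cells, with 1 of 9 higher, 8 lower and none at 0. Mki67 was at 300 CPM in irradiated and 431 CPM in control cells of the cluster (log2 ratio -0.52). The median cell had 35774 UMIs in the irradiated and 27092.5 UMIs in the control library. Among its cells of 15000 to 30000 UMIs, 147 irradiated and 517 control cells, 2 members were called higher and 2 lower, where 10.6% and 18.5% of genes were called, and the median log2 ratio was 0.051. The part of these values in the result was not tested.

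**Figure D2:**
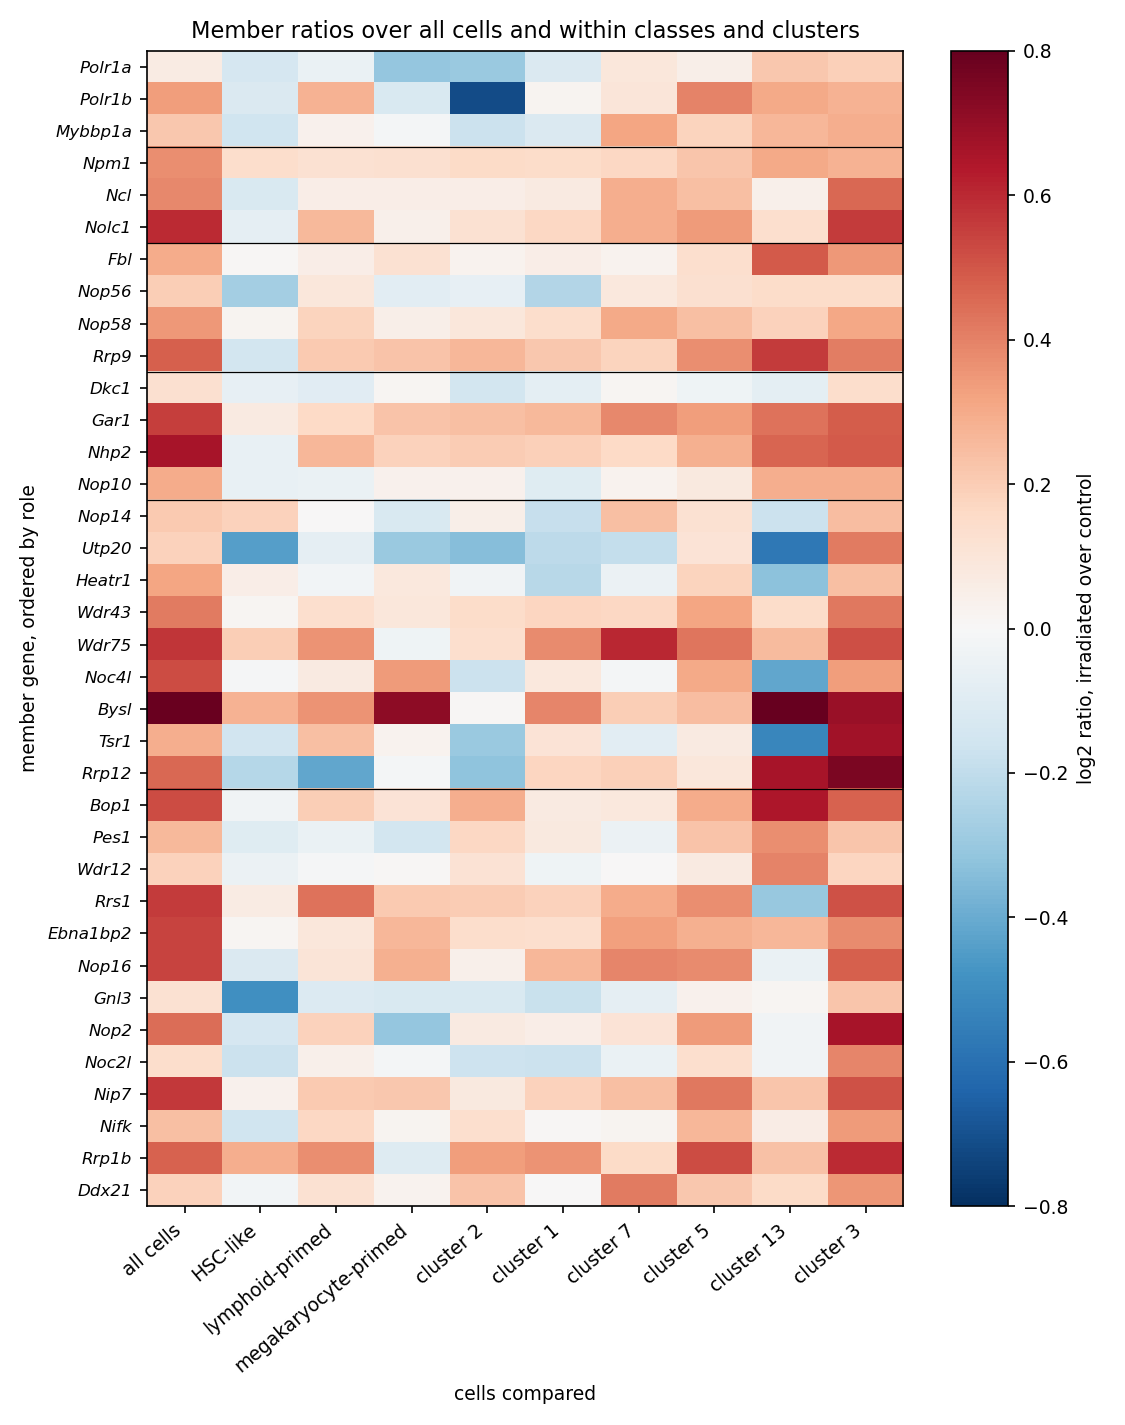
Log2 ratio of each member (rows, ordered by role, with lines between roles), irradiated over control, over all cells and within each class or cluster with at least 100 cells in both libraries (columns). The all-cell column and the column of cluster 3 are above 0 throughout, while 23 of the 36 members are below 0 in HSC-like cells.

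The remaining clusters, none of them named, had medians between those of HSC-like cells and cluster 3. In cluster 5, led by histone genes with Cox6a2 and Irf8, the members summed to 9645 CPM in irradiated and 8330 CPM in control cells, with a median log2 ratio of 0.24. In cluster 7, led by Ung, Ccl9, Cebpa and Ccr2, they summed to 9841 CPM in irradiated and 8718 CPM in control cells, with a median of 0.16. Cluster 1, led by the replication genes Ung and E2f1, had 8256 CPM in irradiated and 7841 CPM in control cells and a median of 0.075. Cluster 2, led by Wfdc17, Ccl3 and Ccl4, had 5677 CPM in irradiated and 5344 CPM in control cells and a median of 0.060. Cluster 13, led by Hist1h2bc, Ptms and Ccnb2, had 6032 CPM in irradiated and 5167 CPM in control cells and a median of 0.20. In all of these clusters the summed level was thus higher in irradiated cells, by log2 ratios between 0.074 and 0.22.

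Markers and depth differed between the libraries in these clusters too. Neutrophil-primed markers summed to 3437 CPM in irradiated and 2248 CPM in control cells of cluster 5 (6 of 10 higher, 1 lower, Fcnb at 0 in both). In cluster 7 they summed to 5904 CPM in irradiated and 4358 CPM in control cells (8 higher, 1 lower, Fcnb at 0 in the control library), and in cluster 2 to 1259 CPM in irradiated and 726 CPM in control cells (9 higher, 0 lower, Fcnb at 0 in the control library). In cluster 1 they summed to 1426 CPM in irradiated and 1160 CPM in control cells (5 higher, 0 lower, none at 0). Lymphoid-primed markers summed to 641 CPM in irradiated and 1567 CPM in control cells of cluster 13 (0 of 9 higher, 8 lower, Il7r at 0 in both and Rag1 at 0 in the irradiated library). Mki67 was at 24.1 CPM in irradiated and 7.62 CPM in control cells of cluster 2, and at 70.6 and 48.4 CPM in cluster 7. It was lower in irradiated cells of cluster 5 (235 CPM against 316 CPM in control cells) and cluster 13 (79.9 against 131 CPM). In cluster 1 it was at 47.8 CPM in irradiated and 47.1 CPM in control cells. The median cell of each of these 5 clusters was deeper in the irradiated library, with 41329 UMIs against 31738 in control cells of cluster 5 and 16199 UMIs against 12393 in control cells of cluster 2. The part of these values in the results was not tested.

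Within each library the summed level spanned a wide range of classes. In the irradiated library, 12 classes or clusters held at least 100 cells, and their summed levels ran between 5196 CPM in HSC-like cells and 9926 CPM in erythroid-primed cells. Erythroid-primed (9873 to 9979), neutrophil-primed (9912 CPM, 9876 to 9947) and cluster 7 cells (9841 CPM, 9794 to 9888) had neighbouring intervals that overlap. Below them came cluster 5, monocyte/dendritic-primed cells at 8459 CPM, then clusters 3 and 1, whose intervals overlap, and then lymphoid-primed and megakaryocyte-primed cells. In the control library, 10 held at least 100 cells, with cluster 7 highest at 8718 CPM and cluster 5 next. B lineage cells (8069 CPM) followed, and HSC-like cells (5198 CPM) and cluster 13 (5167 CPM), whose intervals overlap, were lowest.

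Within the irradiated library all 36 members were at least 25% higher in erythroid-primed than in HSC-like cells, with a median ratio of 1.91. The widest was Bysl, 3.20-fold, and the narrowest Ddx21, 1.33-fold. In neutrophil-primed over HSC-like cells 35 of 36 reached that difference, with Nhp2 widest at 3.60-fold and Ddx21 narrowest at 1.16-fold. In the control library, cluster 7 over HSC-like cells showed it for 33 of 36 members, again with Nhp2 widest at 2.81-fold and Ddx21 narrowest at 0.960-fold. These ratios are descriptions of clusters drawn from the same cells and carry no test. The share of all genes with such a difference between these classes was not counted. The counts therefore cannot be called particular to the members.

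**Figure D3:**
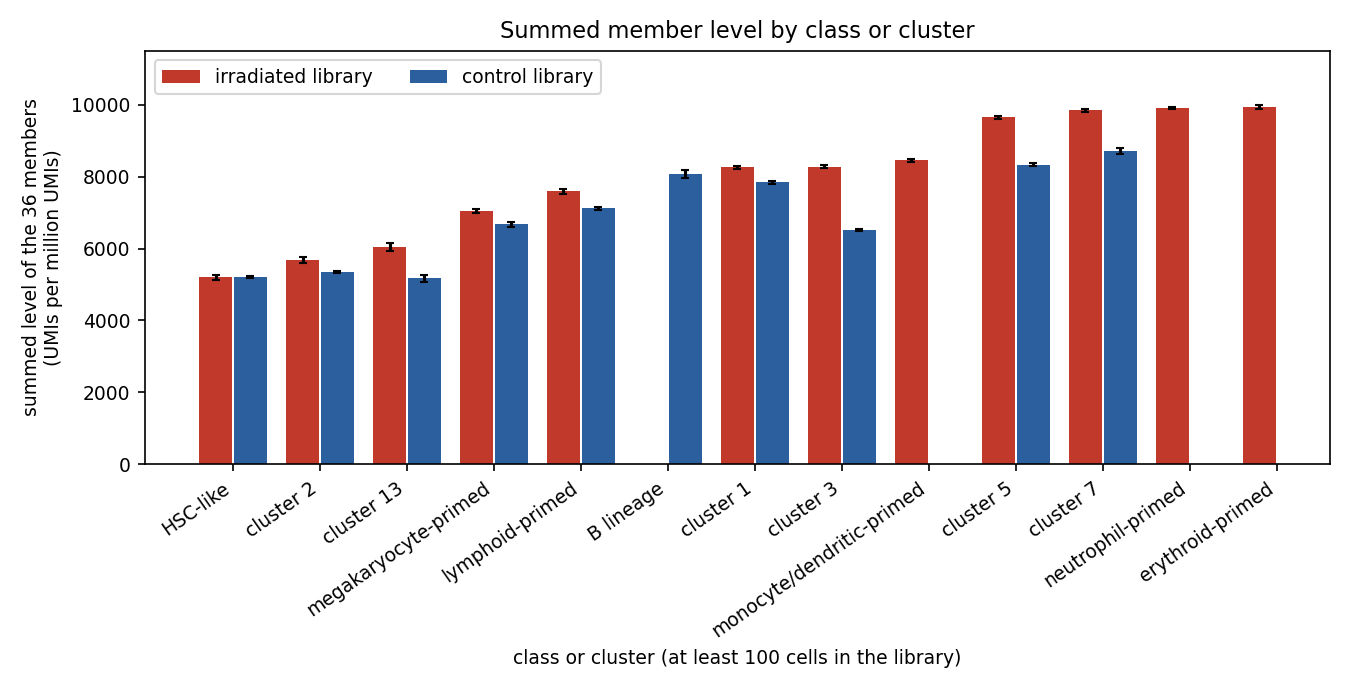
Summed level of the 36 members (UMIs per 1000000 UMIs, bars from 0) in each class or cluster with at least 100 cells in that library, irradiated left and control right, with exact 95% counting intervals. HSC-like cells stand at 5196 CPM in the irradiated and 5198 CPM in the control library, and the irradiated bar is the taller of each of the other pairs.

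Members followed one another across classes. Each member's level set against the summed level of the others gave Spearman coefficients with lows of 0.59 over 12 classes of the irradiated library and 0.48 over 10 of the control library, both for Ddx21. The summed level and the median UMIs per cell of a class had a Spearman coefficient of 0.80 (12 classes, irradiated library) and 0.79 (10 classes, control library). With the share of cells in G1 it was -0.71 for irradiated and -0.66 for control classes. The summed ribosomal protein level gave -0.62 for irradiated and -0.19 for control classes. The classes of a library share its depth and chemistry, and these coefficients are descriptions. The same was not computed over all genes, so they cannot be called particular to the members.

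By phase, the summed level was higher in irradiated cells of all 3 phases, by the smallest log2 ratio in G1. Cell types differed within each phase as well. Neutrophil-primed markers summed to 2711 CPM in irradiated and 912 CPM in control G1 cells (8 of 10 higher, 0 lower), to 6871 CPM in irradiated and 1589 CPM in control S cells (10 higher, 0 lower), and to 7321 CPM in irradiated and 2400.2 CPM in control G2/M cells (8 higher, 1 lower). Stem cell markers summed to 343 CPM in irradiated and 641 CPM in control G1 cells (1 of 10 higher, 6 lower), and monocyte/dendritic-primed markers to 1387 CPM in irradiated and 247 CPM in control G1 cells (8 of 10 higher, 2 lower). None of these markers was at 0, and their part in the result was not tested. Among 874 irradiated and 3149 control G1 cells the members summed to 5813 CPM in irradiated and 5329 CPM in control cells, and 6 were called higher and 0 lower, where 12.9% and 22.4% of genes were called. Bysl (0.50), Rrs1 (0.42), Bop1 (0.39) and Rrp1b (0.37) had the highest ratios in G1, and Tsr1, at 15.8 CPM in irradiated and 18.5 CPM in control cells (-0.23), Utp20 (-0.15), Polr1a (-0.15) and Gnl3 (-0.14) the lowest. Among 1908 irradiated and 2379 control S cells the sums were 9239 CPM in irradiated and 7840 CPM in control cells, and 11 were called higher and 0 lower, where 14.8% and 26.4% of genes were called. Bysl (0.57), Nhp2 (0.49), Nop16 (0.48) and Rrs1 (0.48) led in S phase, and Polr1a (-0.097), Gnl3 (-0.056), Noc2l (-0.029) and Nop56 (-0.016) came last.

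Among 2271 irradiated and 1595 control G2/M cells the members summed to 8824 CPM in irradiated and 6835 CPM in control cells, and 22 were called higher and 0 lower, where 14.3% and 26.2% of genes were called. Bysl (0.79), Nip7 (0.61), Rrp9 (0.58) and Nolc1 (0.57) had the highest ratios there, and Dkc1 (0.10), Utp20 (0.19), Wdr12 (0.19) and Nop56 (0.19) the lowest. In both libraries S cells had the highest sum and G1 cells the lowest. Among cells of 15000 to 30000 UMIs, 1 member was called higher and 2 lower in G1, 1 was higher in S and 8 were higher in G2/M. Over all genes in that window 11.4% were higher and 23.7% lower in G1, 8.77% were higher in S and 11.7% were higher in G2/M.

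Deeper cells gave more of their UMIs to the members. In cells of 1000 to 10000 UMIs the sums were 4937 CPM in irradiated and 4243 CPM in control cells, and in cells of 10000 to 20000 UMIs 5969.5 CPM in irradiated and 5986 CPM in control cells. In cells of 20000 to 40000 UMIs they were 7947 CPM in irradiated and 7349.9 CPM in control cells, and above 40000 UMIs 10101 CPM in irradiated and 8154 CPM in control cells. The libraries thus overlapped in their counting intervals only in the bin of 10000 to 20000 UMIs, and were furthest apart above 40000 UMIs, a bin with 1459 irradiated and 390 control cells.

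**Figure D4:**
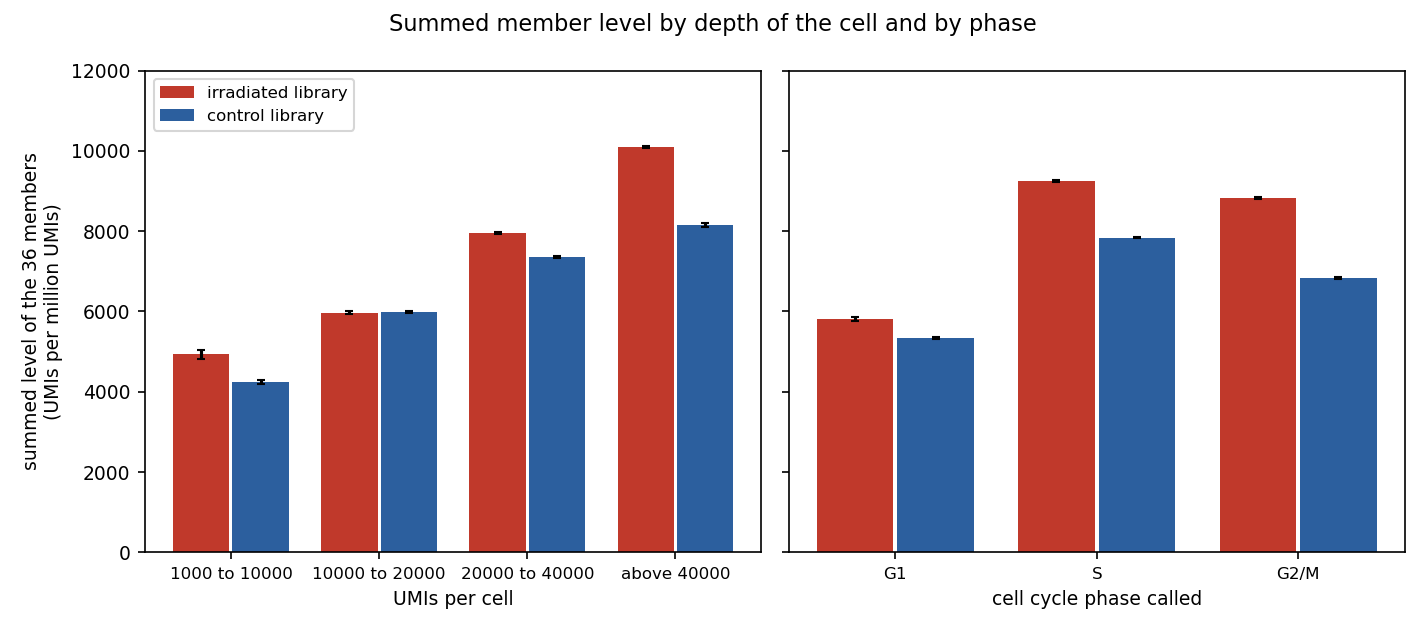
Summed level of the 36 members (UMIs per 1000000 UMIs, bars from 0) by UMIs per cell (left) and by called cell cycle phase (right), irradiated left and control right in each pair, with exact 95% counting intervals. Above 40000 UMIs the sums are 10101 CPM in irradiated and 8154 CPM in control cells, and in G2/M they are 8824 and 6835 CPM.

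Single cells showed the same difference after thinning each cell to 5000 UMIs, which left out 59 irradiated and 66 control cells below that depth. The median irradiated cell had 38 member UMIs (quartiles 29 and 49, 5053 cells) and the median control cell 30 (23 and 39, 7123 cells). Without thinning, the mean was 277 member UMIs in irradiated and 130.1 in control cells. The thinned distributions overlapped over most of their range. Among HSC-like cells the thinned median was 24 in both libraries, and in the mitotic cluster it was 39 in irradiated and 31 in control cells.

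**Figure D5:**
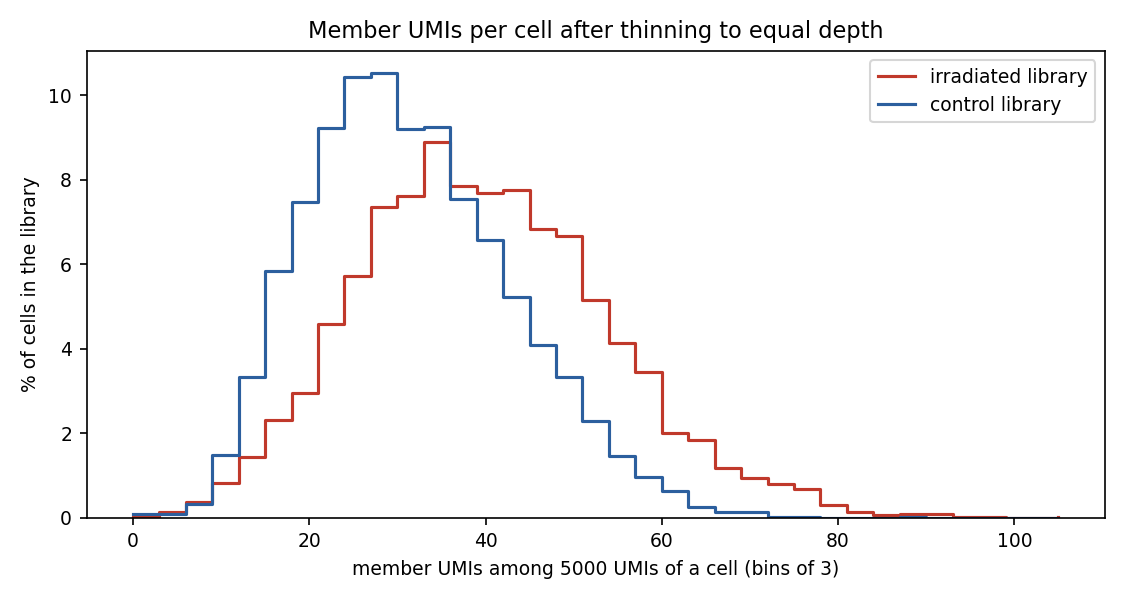
Share of cells (% of the library, bins of 3 UMIs) by the number of member UMIs among 5000 UMIs drawn from each cell, with 5053 irradiated and 7123 control cells. The medians are 38 for irradiated and 30 for control cells, and the curves overlap over most of their range.

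The rest of the pathway was read from lists of other genes. Of 114 further ribosome biogenesis genes at the minimum level, 40 were called higher and 2 lower over all cells, where 17.2% and 28.3% of all genes were called. The median log2 ratio of the 114 was 0.25. These lists were chosen with earlier results of these data known. Of 42 other small subunit factors, 16 were higher and 2 lower, with a median of 0.30. The extremes were Pno1, which acts late on the small subunit, at 54.7 CPM in irradiated and 31.7 CPM in control cells (0.79), Utp4 (0.66), and on the lower side the kinases Riok1 (-0.43) and Riok2 (-0.33). Of 42 other large subunit factors, 18 were higher and 0 lower, with a median of 0.24. Mrto4 was at 152 CPM in irradiated and 91.1 CPM in control cells (0.74) and Nle1 at 0.56, while Nsa2 (-0.26) and Nop53 (-0.22) had the lowest ratios.

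The other subunits and the transcription factors of polymerase I form a further list. Of 14 other polymerase I genes, 2 were called higher and 0 lower, where 17.2% and 28.3% of all genes were called. The median log2 ratio of the 14 was 0.12. The highest were the subunit genes Polr1e (0.47) and Polr1d (0.36), and the lowest were Ttf1 (-0.28), which ends transcription, and Taf1b (-0.19). Ubtf, which binds the ribosomal RNA promoter, was at 95.8 CPM in irradiated and 96.5 CPM in control cells (-0.011), and Rrn3, which brings the polymerase to it, at 22.6 and 23.0 CPM (-0.021). Of 16 genes of the exosome and RNA trimming, 4 were called higher and 0 lower, with Exosc8 (0.56) and Exosc3 (0.52) highest and Xrn2 (-0.13) and Exosc10 (-0.13) lowest.

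The Myc network, transcription factors that pair with Max or its relative Mlx, had 1 of 10 genes called higher, 7 lower and a median log2 ratio of -0.44. Over all genes 17.2% were called higher and 28.3% lower. Myc itself was at 122.9 CPM in irradiated and 113 CPM in control cells (0.12), and was not called. Mycn was at 5.81 CPM in irradiated and 12.3 CPM in control cells (-1.08), and Mxd4, which competes with Myc for Max, at 27.1 and 47.8 CPM (-0.82). Mlx (0.46) and Max (0.14) had the highest ratios. In HSC-like cells Myc was at 117 CPM in irradiated and 103 CPM in control cells, and Mycn at 30.9 and 32.1 CPM. Across the classes of a library Mycn ran against the summed members. Its Spearman coefficients were -0.83 over 12 classes of the irradiated and -0.76 over 10 of the control library, and those of Myc 0.21 and 0.47. Some Mycn levels rest on few UMIs, such as 0.0566 CPM in irradiated monocyte/dendritic-primed cells and 0.876 CPM (4 UMIs) in control cluster 7 cells.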

How the data were processed

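LSK cells of 1 irradiated and 1 control library were sequenced by the 10x Genomics single cell 3′ v2 protocol, per the labels. The deposited values are raw UMI counts per gene and barcode, made by the authors with Cell Ranger 2.1.1 on mm10 per the submitters' processing notes, although version 3.1.0 of the software is named in the matrix headers. Barcodes were kept with at least 1000 UMIs, 500 genes and at most 10% mitochondrial UMIs. Scrublet at an expected rate of 0.06 marked 16 irradiated and 1 control cells as doublets (0.312% and 0.0139%), and these were left out. So few calls mean that it has not worked here, so an alternative leaves out the 6% of cells with the highest scores.

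UMIs were summed per library and scaled to 1000000. Log2 ratios are irradiated over control with exact intervals at 95%, which cover counting error only. A gene with a mean of at least 5 CPM was called at a difference of 25% either way. Cells were clustered with scanpy 1.11.5 and leidenalg 0.10.2 on 2000 variable genes, 30 components and 15 neighbours per library at resolution 1.0, and clusters were named by markers. Phases were called after thinning to 5000 UMIs. Neutrophil-primed cells were not compared, since the control library held 61. The intervals and the 25% call were tested on simulated counts with counting error only. That simulation held no cells, clusters or animals, so it says nothing on those sources of error.

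All members are reported. Within a class or phase up to 4 members with the highest and 4 with the lowest ratio were named, and in other lists up to 2 of each. The members and lists were chosen with earlier results of these data known. Coordinates are GENCODE M21 on GRCm38, and promoter sequences are from RefSeq on GRCm38.p6.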

Additional observations from a re-analysis of the deposited data

How the results depend on the processing

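Over all cells 20 members were called higher, and 23 of 36 members kept the sign of their ratio under every one of 13 alternatives. The count was 1 among cells of 15000 to 30000 UMIs and 3 with cluster shares set to those of the control library. In that depth window 23 of the 36 members had a ratio above 1 and 13 a ratio below it. The lowest was Gnl3 at -0.23. Of the members called higher over all cells, Polr1b was at -0.058 and Ncl at -0.072 in the window. The shares of all genes called higher were 8.72% in that depth window and 5.82% with those cluster shares, against 17.2% in the main setting.

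In cells of 15000 to 30000 UMIs, 4 members were lower in HSC-like cells, 1 was higher and 2 lower in lymphoid-primed cells, and 1 was lower in megakaryocyte-primed cells. Of all genes, 25.9% were lower in HSC-like cells, 10.5% higher and 16.2% lower in lymphoid-primed cells, and 25.3% lower in megakaryocyte-primed cells. In cluster 3, 2 were higher and 2 lower. Wdr43 (-0.033), Wdr75 (-0.024), Noc4l (-0.012), Tsr1 (-0.041), Bop1 (-0.094) and Nifk (-0.022) fell below a ratio of 1 there without being called lower. All genes of that cluster gave 10.6% higher and 18.5% lower. In G1, 1 was higher and 2 lower, in S 1 was higher and in G2/M 8 were higher. Over all genes the shares were 11.4% higher and 23.7% lower in G1, 8.77% higher in S and 11.7% higher in G2/M. With a mitochondrial limit of 5%, 1 was higher and 6 lower in HSC-like cells, 7 higher and 0 lower in lymphoid-primed cells (Rrp12 at 0.21), and 3 higher in G1. The limit gave 11.6% of all genes higher and 16.1% lower in HSC-like cells. It gave 11% higher and 18.6% lower in lymphoid-primed cells, and 12.1% higher in G1. Thinned to 5000 UMIs, 6 were lower in HSC-like cells, 4 higher and 1 lower in megakaryocyte-primed cells and 3 higher in G1. After thinning, 20% of all genes were lower in HSC-like cells, 16% higher and 26.5% lower in megakaryocyte-primed cells, and 14.4% higher in G1. Without the 10 highest cells per gene, 13 were lower in HSC-like, 0 higher in lymphoid-primed and 8 higher in megakaryocyte-primed cells, and 3 higher and 1 lower in G1. That setting takes a larger share of cells from the smaller library of a class, and 43.1% of all genes were then lower in HSC-like and 24.5% higher in megakaryocyte-primed cells. Lymphoid-primed cells had 4.08% of all genes higher, and G1 cells had 8.02% higher and 32% lower. With a mean of at least 20 CPM, fewer genes were tested. Then 1 of 28 members was lower in HSC-like, 0 of 33 lower in lymphoid-primed and 1 of 32 higher in megakaryocyte-primed cells. The shares of all genes in those directions were 10.4%, 8.79% and 6.91%.

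Allowing members among the clustering genes let in 0 members, so it did not test clustering on members. It let in 5 genes of the other biogenesis or Myc network lists and 8 ribosomal protein genes. Under it 1 member was higher and 4 lower in HSC-like cells and 1 lower in megakaryocyte-primed cells. The shares of all genes were 10.8% higher and 16.4% lower in HSC-like cells, and 20.8% lower in megakaryocyte-primed cells. At resolution 0.5, 1 was higher in HSC-like cells, 7 higher and 0 lower in lymphoid-primed cells, and 1 higher and 1 lower in megakaryocyte-primed cells. At that resolution 10.3% of all genes were higher in HSC-like cells. In lymphoid-primed cells 10.4% were higher and 19.9% lower, and in megakaryocyte-primed cells 9.16% were higher and 22% lower. With 30 neighbours, 0 were lower in lymphoid-primed cells, and 1 was higher and 3 lower in megakaryocyte-primed cells (Noc4l at -0.19, not called). There 12.5% of all genes were lower in lymphoid-primed cells, and 12.3% higher and 23.7% lower in megakaryocyte-primed cells. With cells named by their own markers, 12 were higher and 0 lower in HSC-like cells (Utp20 at 0.13, Gnl3 at 0.056), 8 higher and 0 lower in lymphoid-primed cells (Rrp12 at 0.059) and 5 higher in megakaryocyte-primed cells. That naming gave 16.5% of all genes higher and 24.7% lower in HSC-like cells. It gave 12.3% higher and 20.4% lower in lymphoid-primed cells, and 14.4% higher in megakaryocyte-primed cells. With all barcodes, 0 were lower in lymphoid-primed and 1 lower in megakaryocyte-primed cells, against 16% and 21.1% of all genes. With cells weighted equally 1 was higher in HSC-like cells, against 11.8% of all genes. With the median ratio set to 1, 4 were higher in megakaryocyte-primed cells, against 11.9% of all genes. Except where stated, the cause was not tested.

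HSC-like cells with 30 neighbours (88 irradiated cells) and megakaryocyte-primed cells at the 5% limit (90 control cells) gave no value. The phases were not recomputed for all barcodes. Cluster 3 was not recomputed for all barcodes, the 5% limit or any other clustering or naming of cells. No paired analysis was possible because each group has 1 library. Low UMI counts, as for Rrp12, leave wide intervals, and between-animal error cannot be estimated.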

Other observations

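Some classes held under 100 cells in a library and entered no comparison. The members summed to 9912 CPM in 662 irradiated and 8817 CPM in 61 control neutrophil-primed cells. Mature neutrophil markers summed to 183 CPM in irradiated and 19658 CPM in control cells of that class, with 0 of 7 higher, 7 lower and none at 0, and their part in those sums was not tested. In erythroid-primed cells they summed to 9926 CPM in 462 irradiated and 7463 CPM in 41 control cells. Monocyte/dendritic-primed cells had 8459 CPM in 395 irradiated and 8501 CPM in 57 control cells. The lowest sum of any cluster was in cluster 15, led by Igkc, Cd74 and H2-Eb1, genes of antibody chains and of antigen presentation, with 2967 CPM in 79 irradiated and 4082 CPM in 26 control cells. Cluster 17, led by the interferon-induced genes Cxcl10, Ifit3 and Ifit1, had 6500 CPM in 42 irradiated and 5854 CPM in 15 control cells.

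Single members also differed in how far their level varied between classes. Over the 12 classes of the irradiated library with at least 100 cells, the highest level over the lowest was 4.53-fold for Bysl, 38.8 CPM in erythroid-primed cells against 8.57 CPM in cluster 2, and 1.38-fold for Ddx21. The median over the 36 members was 2.22-fold in the irradiated library and 1.92-fold over 10 classes of the control library, where Rrp12 (2.96-fold) and Nop14 (1.38-fold) were the extremes. Erythroid-primed cells held the highest level of 21 of the 36 members in the irradiated library. HSC-like cells were among the 3 lowest classes for 36 of 36 members in the irradiated library and for 29 of 36 in the control library. These ranges and ranks were not counted over all genes.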
